A study of Mus musculus with 4 samples.

Results

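The type I interferon antiviral genes described here were 9 of 33697 measured features: Isg15, Ifit1, Ifit2, Ifit3, Irf7, Stat2, Oasl2, Rsad2 and Rtp4. They were taken by name as known interferon-stimulated genes, with earlier results of these data in view, and all 9 were measured in each library. Single-cell RNA was profiled in mouse trachea with a 10x Genomics GEM-X 5′ v3 kit after papain dissociation, with 1 library for each of 4 groups. All mice carried P63-CreER, which acts in Trp63-expressing basal cells after tamoxifen, together with Ki67-lsl-Dre and Rosa26-rsr-GFP, a pair of alleles that mark descendants of recombined cells that expressed Ki67. All received tamoxifen, and tissue was collected 10 days later. Controls were Ctnnb1-fl/+, so they too could lose 1 allele of the gene for beta-catenin in basal cells. Knockouts were Ctnnb1-fl/fl. Dorsal and ventral trachea were separate libraries for each genotype. The sources used here do not state the age of the mice or how many were behind a library.

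Type I interferons signal through the receptor chains IFNAR1 and IFNAR2 and the kinases JAK1 and TYK2. A complex that contains STAT2 and IRF9 then binds interferon-stimulated response elements in promoters. IRF7 amplifies production of the interferons themselves, and the induced proteins act against viruses at several steps. In airway tissue many of these genes also have a low basal expression without infection. Type III interferons use another receptor, with the chains IFNLR1 and IL10RB, and reach much the same complex, so the RNA of the 9 genes does not tell which interferon acted.

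The promoters of several members hold the letters GAAA, any 2 bases, then GAAA again, the core of the interferon-stimulated response element, and these are shown because the members are read as 1 response. The stretches come from RefSeq promoter windows on GRCm38.p6, which run from 250 bases before to 50 bases after the start of a gene. Capitals mark the matches, on either strand and with overlaps joined, and each sequence is written 5′ to 3′ along the strand of its gene.
Isg15, chr4:156200860-156200911, minus strand: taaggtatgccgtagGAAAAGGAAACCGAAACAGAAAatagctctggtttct
Ifit1, chr19:34640770-34640828, plus strand: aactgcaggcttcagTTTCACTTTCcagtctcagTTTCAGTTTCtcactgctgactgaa
Stat2, chr10:128270261-128270300, plus strand: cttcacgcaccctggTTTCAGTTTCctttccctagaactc
Rsad2, chr12:26456548-26456587, minus strand: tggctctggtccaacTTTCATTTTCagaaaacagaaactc

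Isg15 held 3 overlapping matches 78 to 66 bases before its start and Ifit1 held 2, at 104 and 85 bases. The single matches of Stat2 and Rsad2 lay 222 and 120 bases before the start. Ifit3 also had 2 matches, at 156 and 122 bases. In all, 5 of the 8 members with an entry had a match, where 3.99% of 27025 genes did. The windows of Ifit2, Irf7 and Oasl2 did not contain these letters. Rtp4 had no entry, so its promoter was not searched. A match is a string of letters and no measure of binding. In RefSeq, Ifit2, Ifit3 and Ifit1 are near neighbours on chromosome 19, between 34550550 and 34650009 on GRCm38.p6. Ifit1 and Ifit1bl1, and Ifit3 and Ifit3b, are close copies, so the division of reads within each pair is uncertain. Oasl2 and Oasl1 are related neighbours on chromosome 5, and the division of their reads was not checked.

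The 4 libraries held 144851737 to 286711618 UMIs and 6744 to 13962 barcodes, and 6018 to 12506 cells were kept. Pairs of libraries shared 21 to 57 cell barcodes, at most 0.511% of the smaller library. Levels are CPM, the UMIs of a gene scaled to the total of all UMIs, summed over the cells of a class in a library, and are given in the order control dorsal, control ventral, knockout dorsal, knockout ventral unless stated. Classes were clusters named from marker genes and are therefore called basal-like, secretory-like and so on. Trp63 reached 113 to 164 CPM in basal-like cells. With 1 library per group there was no test: intervals are at 95% and cover counting error only, and differences between mice, dissections and libraries cannot be told apart from those of region and genotype. A gene was measured where either library of a comparison had 20 or more of its UMIs, and was counted as higher or lower when its ratio was at least 1.5-fold and the interval left out 1. Fewer molecules per cell and fewer expressing cells both lower a CPM, and the share of positive cells is given for that reason. Cells richest in members are those in which member UMIs made up the largest part of the cell's own UMIs. Such cells can have few UMIs.

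Ctnnb1 itself was checked first. Its RNA in basal-like cells was 281, 282, 207 and 231 CPM, so that the dorsal knockout stood at 0.737 (0.719 to 0.756) of its control and the ventral knockout at 0.820 (0.794 to 0.847). Fibroblast-like cells, which have no known use of the Trp63 promoter, stood at 0.758 and 0.848. Which exons are floxed is not stated in the labels, and 5′ reads can come from outside them, so the level of this RNA does not check recombination.

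Most of the 9 genes had their lowest levels in basal-like, secretory-like or gland-like cells. They were higher in macrophage-like, ciliated-like, hillock-like and fibroblast-like cells. The summed level of the members was 123, 218, 79.1 and 142 CPM in basal-like cells. It was 579, 533, 211 and 318 CPM in macrophage-like cells and 339, 338, 166 and 246 CPM in fibroblast-like cells. Ciliated-like cells reached 414, 395, 488 and 203 CPM. Each of these last classes lay above basal-like cells in 4 of 4 libraries, by a mean log2 difference over libraries of 1.53 ± 0.48 (SD) for macrophage-like, 0.99 ± 0.36 for fibroblast-like and 1.44 ± 0.95 for ciliated-like cells. Secretory-like cells, at 149, 181, 104 and 92.2 CPM, were above basal-like cells in 2 of 4 libraries (-0.05 ± 0.48). Their order was therefore not resolved. Hillock-like cells were numerous enough in the dorsal libraries only and held 333 CPM in the control and 331 CPM in the knockout. Gland-like cells were found in the ventral libraries only, at 197 CPM and 79.6 CPM.

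**Figure D1:**
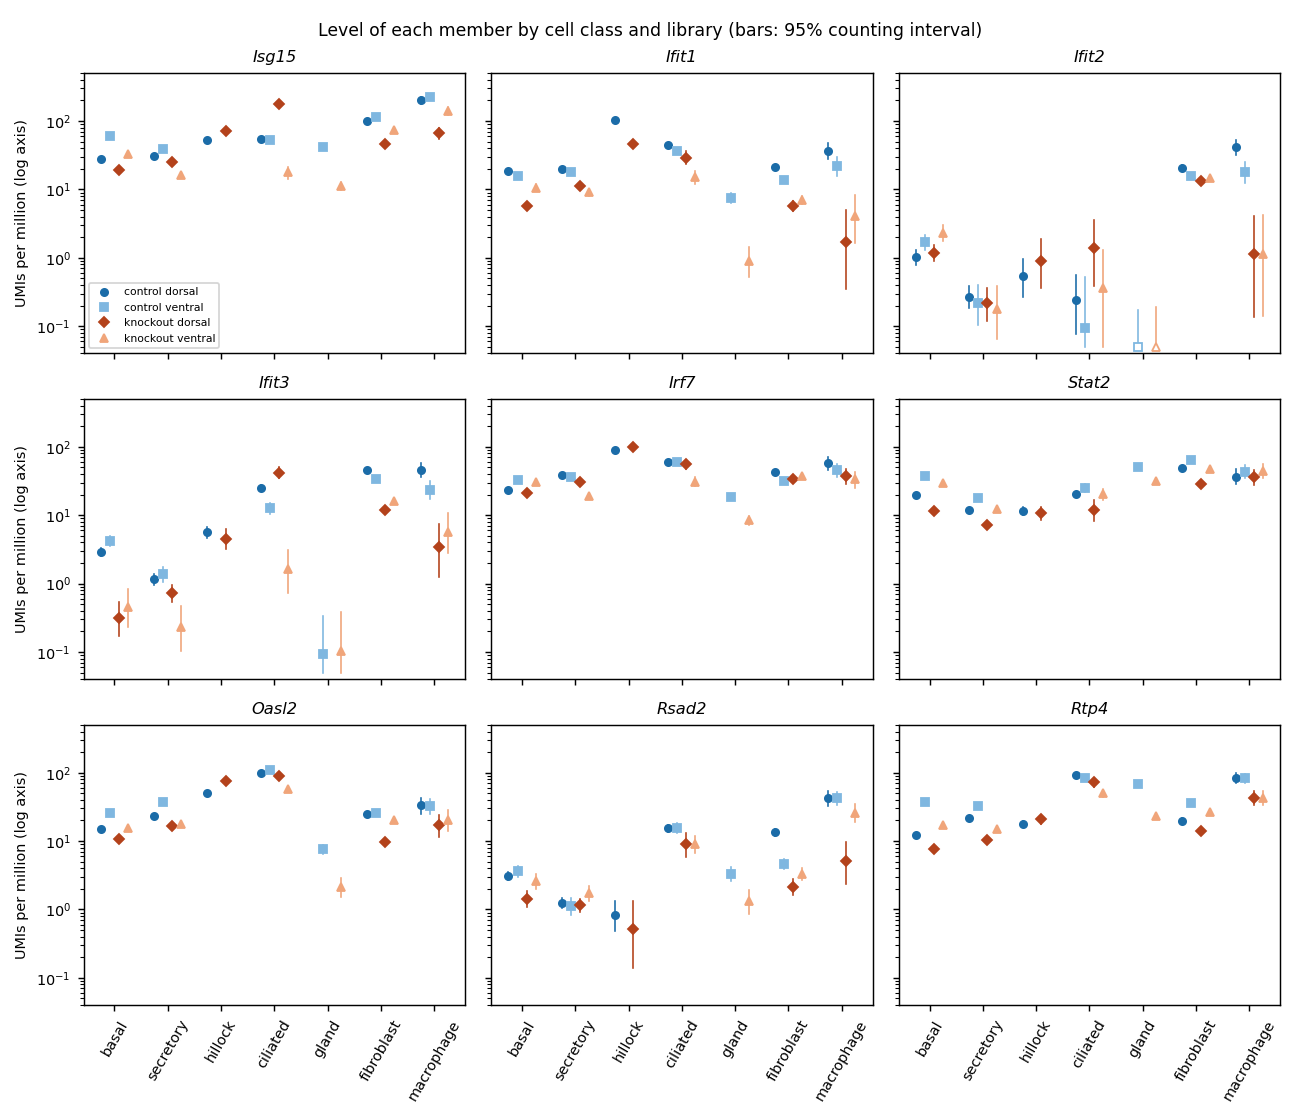
Level of each member in CPM (log axis) in the 7 cell classes, 1 point per library with its 95% counting interval. Open points at the lower edge are classes with no UMI. Ifit2 lies between 13.3 and 20.9 CPM in the 4 fibroblast-like libraries and below 2.4 CPM in the epithelial classes, and Oasl2 is highest in ciliated-like cells in each library, among classes with at least 50 cells.

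Isg15 encodes a ubiquitin-like protein that is conjugated to other proteins and also secreted. In macrophage-like cells it stood at 201, 223, 66.1 and 140 CPM, and in fibroblast-like cells at 101, 113, 46.2 and 74.4 CPM. In basal-like cells it was 27.7, 61.0, 19.1 and 32.7 CPM. Macrophage-like and fibroblast-like cells exceeded basal-like cells in each library, and in both classes the knockout libraries were the lowest for their region.

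The 3 Ifit members encode tetratricopeptide proteins, of which IFIT1 binds foreign RNA caps, and they did not share 1 pattern over the classes. Ifit1 was highest in dorsal hillock-like cells, at 103 CPM in the control and 45.8 CPM in the knockout, and reached 44.7, 36.4, 29.1 and 15.2 CPM in ciliated-like cells. Ifit2 was highest in fibroblast-like cells and in macrophage-like cells of the controls. Its fibroblast-like levels were 20.9, 15.7, 13.3 and 14.9 CPM, against 1.02, 1.67, 1.18 and 2.31 CPM in basal-like cells. Macrophage-like cells held 41.1, 17.9, 1.14 and 1.15 CPM, and ventral lymphatic endothelial-like cells 8.01 CPM in the control and 6.19 CPM in the knockout. No UMI of Ifit2 was seen in gland-like cells. Ifit3 followed Ifit2 in fibroblast-like cells, with 45.4, 33.7, 12.0 and 16.0 CPM, and unlike it also appeared in ciliated-like cells. In gland-like cells Ifit3 had 2 UMIs in each library.

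Among the 7 classes compared, Irf7, the transcription factor that amplifies interferon production, was most abundant in dorsal hillock-like cells, at 91.4 and 101 CPM. The 69 NK cell-like cells of the control dorsal library held 106 CPM. Ciliated-like cells held 60.5, 60.1, 55.3 and 30.8 CPM. Stat2, a subunit of the signalling complex, was ordered differently. It reached 48.9, 63.2, 28.7 and 46.8 CPM in fibroblast-like cells and only 11.9, 17.7, 7.27 and 12.4 CPM in secretory-like cells. Stat2 was below its basal-like level in secretory-like cells of 4 of 4 libraries (-0.92 ± 0.29 on the log2 scale). Ventral gland-like cells held 50.1 and 32.0 CPM of it, the first being the highest value of an epithelial class.

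Oasl2, an oligoadenylate synthetase-like protein, and Rtp4, a receptor transporter protein with antiviral activity, were both high in ciliated-like cells. Oasl2 measured 99.1, 109.5, 90.7 and 58.1 CPM there, and Rtp4 93.5, 82.5, 72.1 and 49.9 CPM. Both exceeded basal-like cells in 4 of 4 libraries, by 2.44 ± 0.55 and 2.21 ± 1.01 on the log2 scale. Rtp4 was also high in gland-like cells of the control, at 68.5 CPM, where Oasl2 was 7.63 CPM. Rsad2, which encodes viperin, was highest in macrophage-like cells of 3 libraries, at 42.3, 42.0, 5.13 and 25.9 CPM, while in the dorsal knockout ciliated-like cells held more, at 9.11 CPM. It lay at 0.834 and 0.518 CPM in dorsal hillock-like cells.

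Over the 24 points of class and library with at least 50 cells, Ifit3 and Isg15 were most like the mean of the other members (Pearson r of log2 levels 0.885 and 0.858), and Stat2 was least like it (0.316). Among 13123 other genes, those most like the mean of all 9 were Xaf1 (0.898), Sp100 (0.881), Ifi47 (0.872) and Parp12 (0.861), followed by Parp9, Ralgds, Gak, Znfx1 and Cpeb4 down to 0.836. Ralgds, Gak and Cpeb4 belonged to no interferon list used here. The points share cells, libraries and depth, so these coefficients describe the pattern and carry no p-value.

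Dorsal basal-like cells held less of the members than ventral basal-like cells in both genotypes. Among controls the summed dorsal level was 0.565 (0.548 to 0.582) of the ventral one, and among knockouts it was 0.557 (0.531 to 0.585), from pairs with no library in common. In controls 5 of 9 measured members were lower dorsally and 0 were higher, where 18.3% of all measured genes were lower and 7.63% higher. In knockouts 6 of 8 were lower and 0 higher, against 21.1% and 8.13% of all genes. The median log2 ratio of the members was -0.71 and -0.88, beside -0.05 and -0.14 over all genes.

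Rtp4 had the lowest dorsal-to-ventral ratio of the members in controls. Its level was 12.3 CPM dorsally and 36.9 CPM ventrally in controls, a ratio of 0.335 (0.307 to 0.365). The knockout values were 7.75 CPM and 17.3 CPM (0.449, 0.388 to 0.520). Stat2 was 19.5 CPM against 37.0 CPM in controls and 11.4 CPM against 29.7 CPM in knockouts, with ratios of 0.526 (0.488 to 0.568) and 0.385 (0.342 to 0.432). Dorsal Isg15 stood at 0.454 (0.427 to 0.483) of its ventral level for controls, and for knockouts at 0.585 (0.530 to 0.646). In these 3 genes both dorsal libraries were below both ventral ones.

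The dorsal level of Oasl2 was 0.596 (0.545 to 0.651) of the ventral one in the control pair and 0.679 (0.592 to 0.780) in the knockout pair, and the latter missed the 1.5-fold limit. Irf7 stayed inside that limit in both pairs, at 0.707 (0.655 to 0.762) and 0.702 (0.637 to 0.774). Ifit1 went the other way in controls, with 18.3 CPM dorsally and 15.5 CPM ventrally, a ratio of 1.19 (1.07 to 1.31). That direction rested on few cells: without the 1% of cells richest in members the Ifit1 ratio was 0.787. In knockouts Ifit1 was lower dorsally, at 5.71 CPM and 10.6 CPM. Ifit2 was lower dorsally in both pairs, at ratios of 0.611 and 0.512 and with 52 to 69 UMIs a library, and Rsad2 stood at 0.853 and 0.550.

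**Figure D2:**
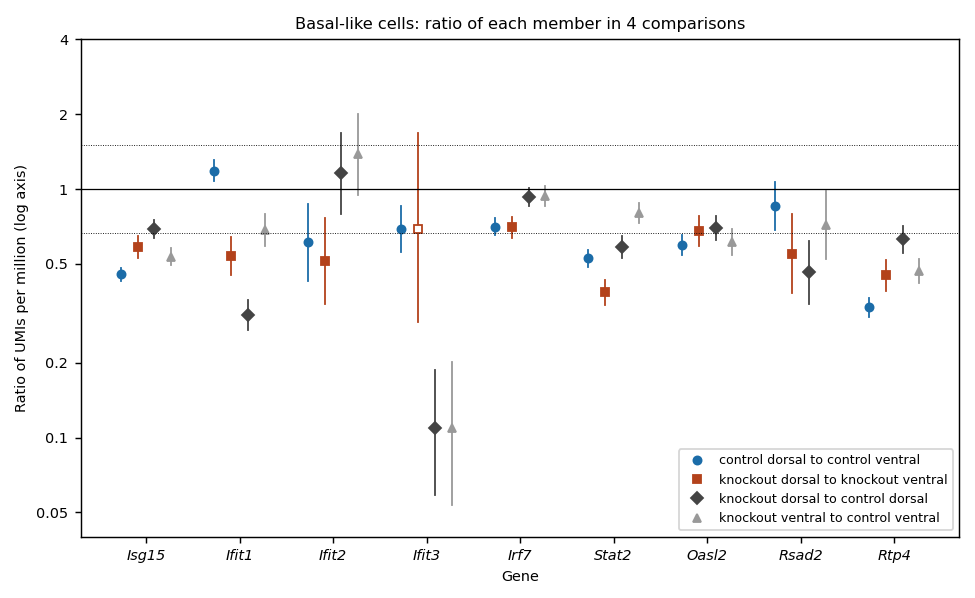
Ratio of CPM in basal-like cells (log axis) for the 9 members in 4 comparisons, with 95% counting intervals. Dotted lines mark 1.5-fold and the open point a pair with fewer than 20 UMIs in both libraries. Ifit3 in both knockout comparisons is at 0.109 and Irf7 lies between 0.702 and 0.935.

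The regions drew on different basal-like clusters. Of the ventral basal-like cells, 1353 of 1558 in the control and 842 of 1015 in the knockout lay in 1 cluster (cluster 0), which held 332 and 39 dorsal cells. Dorsal cells were mainly in cluster 1 in the control (1947 of 3758) and cluster 2 in the knockout (1462 of 1793). Within clusters 1 and 2 the dorsal summed level was below the ventral one in both genotypes. The ratios were 0.495 and 0.662 in controls and 0.711 and 0.406 in knockouts. Ventral cells in these 2 clusters were few, with 78 and 54 in the control and 60 and 55 in the knockout. Within cluster 0 the control ratio was 1.53, and 0.714 without the 1% of cells richest in members. Genes that respond to tissue handling (immediate early and heat shock genes) moved with region too, with 20303, 27579, 17908 and 28714 CPM in all in basal-like cells. Of these genes 5 of 16 were lower dorsally in controls and 9 of 16 in knockouts, against 18.3% and 21.1% of all genes. Their part in the result was not tested.

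Other lists of the pathway differed between the regions to unequal degrees. Of the other antiviral effectors, 12 of 38 were lower dorsally in controls and 10 of 36 in knockouts, against 18.3% and 21.1% of all genes, with medians of -0.40 and -0.39. Ifi27l2a, a small mitochondrial interferon-stimulated protein, was 78.0 CPM against 268 CPM in controls, a ratio of 0.291. Slfn5 was at 0.066 of the ventral level, and Ifit1bl1, the close copy of Ifit1, was 4.07-fold higher dorsally. Of all genes 7.63% were higher dorsally in controls and 8.13% in knockouts. Among receptors and their kinases 1 of 9 was higher in dorsal controls and 0 were lower. This was Ifngr1, a receptor chain for interferon gamma, at 1.502 just past the limit. In knockouts 2 receptor and kinase genes were lower dorsally and 0 higher. Of 7 transcription factors 4 were lower dorsally in controls, among them Irf1 (0.455) and Irf8 (0.332), and 2 were higher, Irf5 (1.95) and Irf3 (1.604), with a median log2 ratio of -0.71. In knockouts 3 were lower and 0 higher. The inducible GTPases, which defend against intracellular pathogens, were lower dorsally for 13 of 13 measured members in controls and 9 of 11 in knockouts.

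Regional differences in the other classes were smaller than in basal-like cells or were carried by few cells. Fibroblast-like and macrophage-like sums were also lower dorsally in knockouts, with or without the cells richest in members. Secretory-like controls had a summed ratio of 0.822 (0.801 to 0.844), with 1 member lower dorsally against 16.2% of all genes. Secretory-like knockouts had 1.13 (1.08 to 1.18), with 3 members higher against 5.58% of all genes and 2 lower against 15.1%. Without the 1% of cells richest in members that ratio was 1.01 (0.970 to 1.06) and 0 members were higher. In macrophage-like controls the summed ratio was 1.09 (0.992 to 1.19), with 3 members higher (Ifit1, Ifit2 and Ifit3) against 7.56% of all genes. It was 0.815, with 0 members higher, without the 1% of cells richest in members. These were 3 cells in each library and held 43.0% and 24.2% of the member UMIs. In macrophage-like knockouts the dorsal sum was 0.662 (0.579 to 0.757) of the ventral one, and 2 members were lower dorsally against 18.2%. Without the 1% of cells richest in members these knockout sums were 175 CPM dorsally and 276 CPM ventrally. The sum in fibroblast-like controls had a ratio of 1.00 (0.974 to 1.03), while 1 member was lower dorsally against 16.1% of all genes (Rtp4, at 0.545, 0.489 to 0.608) and 2 were higher against 4.63% (Ifit1, at 1.56, and Rsad2, at 2.91), the second count being 0 without the top 1% of cells. In knockout fibroblast-like cells the dorsal sum was 0.676 (0.651 to 0.703) of the ventral one, with 5 of 9 members lower where 27.8% of all genes were. Without the 1% of cells richest in members the 2 sums were 138 CPM and 226 CPM. Ciliated-like controls had a regional ratio of 1.05 (1.01 to 1.09), with 1 member higher (Ifit3) against 4.2% of all genes. For ciliated-like knockouts the ratio was 2.40 (2.22 to 2.60), with 5 members higher against 3.73% and 1 lower against 14.4%. It was 1.05 (0.953 to 1.17) without the 3 cells richest in members in each library.

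With both Ctnnb1 alleles floxed, the members were lower in basal-like cells than with 1. Knockout over control, the sum gave 0.642 (0.617 to 0.668) in the dorsal pair and 0.650 (0.624 to 0.677) in the ventral pair. Of 9 measured members, 5 were lower and 0 higher in the dorsal knockout, against 15.8% and 10.3% of all genes. In the ventral knockout 4 were lower and 0 higher, against 4.88% and 2.99%. The median log2 ratios were -0.67 and -0.54, beside -0.09 and -0.00 over all genes. Each knockout comparison shares its libraries with the regional ones.

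Rtp4 was the member, besides Ifit3, that was counted as lower in both regions, at 0.628 (0.552 to 0.714) dorsally and 0.468 (0.418 to 0.523) ventrally. Isg15 stood at 0.691 (0.636 to 0.750) and 0.535 (0.493 to 0.581), Oasl2 at 0.699 (0.625 to 0.780) and 0.613 (0.542 to 0.691), and both passed the limit in the ventral pair alone. Ifit1 was at 0.311 (0.271 to 0.357) dorsally and 0.687 (0.590 to 0.797) ventrally. Stat2 was lower dorsally, at 0.586 (0.528 to 0.650), and at 0.802 (0.732 to 0.879) ventrally. Irf7 differed little, with 23.1 CPM in the control and 21.5 CPM in the knockout dorsally (0.929, 0.856 to 1.01) and 32.7 CPM and 30.6 CPM ventrally (0.935, 0.852 to 1.03). Ifit2 was the member above 1, at 1.16 (0.791 to 1.68) and 1.38 (0.943 to 2.01), with intervals that hold 1.

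Ifit3 had the lowest ratio and the least even distribution over cells. It went from 197 UMIs (2.92 CPM) to 14 (0.318 CPM) dorsally and from 159 UMIs (4.22 CPM) to 11 (0.462 CPM) ventrally, ratios of 0.109 (0.059 to 0.187) and 0.109 (0.053 to 0.201). In the controls these UMIs lay in 39 of 3758 and 44 of 1558 cells, and the top 3 cells held 66.0% and 61.6% of them. Without the 1% of cells richest in members the ratios were 0.298 and 0.377. Where cells were named from marker genes alone, the dorsal log2 ratio was 0.40, so the size of the Ifit3 difference rests on few cells and its dorsal direction on how cells were named. Rsad2 was lower dorsally at 0.465 (0.345 to 0.619), and at 0.852 without the top cells.

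The lower sum was present within the basal-like clusters. It was below 1 in 6 of 6 comparisons of knockout with control inside a cluster. The ratios were 0.538, 0.552 and 0.848 dorsally (clusters 1, 2 and 8) and 0.648, 0.375 and 0.9002 ventrally (clusters 0, 1 and 2). The last had an interval that holds 1 (0.734 to 1.10). Some of these clusters were small. Ventral clusters 1 and 2 had 78 and 54 control cells and 60 and 55 knockout cells. Dorsal clusters 1 and 8 had 115 and 141 knockout cells. Markers of macrophages summed to 12.4, 13.0, 20.6 and 13.8 CPM in basal-like cells, with 7, 7, 7 and 6 of 7 above 0. Those of dendritic cells summed to 1.97, 2.42, 1.25 and 2.22 CPM, with 6, 4, 3 and 3 of 7 above 0. Those of T cells summed to 2.81, 0.957, 2.21 and 0.294 CPM, with 6, 5, 2 and 3 of 6 above 0. Those of monocytes summed to 65.0, 21.0, 32.2 and 15.5 CPM, with 4, 5, 3 and 3 of 6 above 0. Markers of glands summed to 561, 1491, 329 and 1027 CPM, with 8, 8, 7 and 8 of 8 above 0, which is the same order of libraries as the summed members. The part of these markers in the result was not tested. Barcodes removed for having under 500 genes held 194, 152, 85.5 and 88.0 CPM of the members, so these barcodes too were lower in the knockout libraries. The part of free RNA in the result was not tested.

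In controls, basal-like cells with at least 5 reporter UMIs had a summed level of 0.735 (0.6996 to 0.773) of cells with at most 1 dorsally and 0.974 (0.920 to 1.03) ventrally. In the knockouts the ratios were 0.971 (0.894 to 1.06) and 1.07 (0.996 to 1.16). Only the dorsal control interval left out 1, and the difference between libraries was not tested.

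Of the nucleic acid sensing genes, which detect viral RNA and DNA upstream of the interferons, 7 of 12 were lower in the dorsal knockout and 2 of 12 in the ventral knockout, against 15.8% and 4.88% of all genes, with medians of -0.62 and 0.06 and 0 higher. Ifi204 (0.259) and Myd88, an adaptor of Toll-like receptors (0.546), were lowest dorsally. Of 9 receptor and kinase genes 2 were lower in the dorsal knockout (Jak2, at 0.415, and Ifnlr1, at 0.655) and 1 in the ventral knockout (Jak2, at 0.610). Ifnar1 measured 14.0, 13.5, 11.4 and 14.0 CPM and Ifnar2 46.3, 62.0, 47.2 and 62.6 CPM in basal-like cells. Ifnlr1, the private chain of the type III receptor, was 8.58, 7.31, 5.62 and 7.93 CPM there and at most 0.257 CPM in fibroblast-like cells. Among the transcription factors 2 of 7 were lower in the dorsal knockout (Irf5, at 0.584, and Irf9, at 0.632).

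Of the other antiviral effectors, 9 of 37 were lower in the dorsal knockout and 10 of 38 in the ventral one, against 15.8% and 4.88% of all genes, with medians of -0.34 and -0.40. Ifit3b, the close copy of Ifit3, was at 0.123 and 0.060 of the control level, from 2.58 CPM and 2.82 CPM in the controls. Ifi27l2a was at 0.488 ventrally. The inducible GTPases were lower for 8 of 13 members in each region. Of 7 negative regulators, 3 were lower dorsally and 0 ventrally. Socs3, which blocks JAK kinases, was among the former at 0.266, with 438 CPM in the control and 117 CPM in the knockout. The handling genes had 4 of 16 lower and 2 higher in the dorsal knockout (Hspa1a, at 2.99, and Hspa1b, at 2.43). All genes had 15.8% lower and 10.3% higher in that comparison. In the ventral knockout the handling genes had 0 either way.

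The interferon ligands were almost absent. Ifnb1 had 36 UMIs in 12 cells over all libraries, 28 of them in 6 dendritic-like and macrophage-like cells of the control ventral library, where 1 cell of 3787 UMIs held 15 Ifnb1 UMIs and 48 UMIs of the members. The control dorsal, knockout dorsal and knockout ventral libraries had 5, 3 and 0 UMIs of it. Ifng, the gene for interferon gamma, had 84 UMIs in 28 cells, the most of the ligands listed. By library it had 10, 47, 18 and 9 UMIs, in NK cell-like, T cell-like, ciliated-like and fibroblast-like cells. Ifnk had 9 UMIs and Ifna2 had 4 over all libraries, and Ifna13, Ifne and Ifnl2 had 3 each. Ifna1, Ifna4, Ifna5 and Ifnl3 had none in any library, a limit set by the cells sampled.

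Fibroblast-like and macrophage-like cells, which have no known use of the Trp63 promoter, were lower in the knockout libraries as well. Other such classes were mixed. Dendritic-like cells held 398 CPM of the members in the control and 219 CPM in the knockout dorsally, and 280 CPM and 167 CPM ventrally. Dorsal T cell-like cells held 259 CPM and 170 CPM, while ventral T cell-like cells held 188 CPM and 241 CPM. Ventral lymphatic endothelial-like cells held 249.7 CPM in the control and 259 CPM in the knockout, and ventral chondrocyte-like cells 88.1 CPM and 80.5 CPM. Fibroblast-like cells of the dorsal knockout had a sum at 0.491 (0.473 to 0.510) of their control, and those of the ventral knockout at 0.728 (0.706 to 0.750). The lower sum held in 4 of 4 dorsal and 5 of 5 ventral fibroblast-like clusters. Of 9 members 7 were lower dorsally, against 20.8% of all genes, and 3 ventrally, against 5.72%. Ifit3 stood at 0.265 (0.233 to 0.301) and 0.476 (0.426 to 0.531), Ifit1 at 0.273 and 0.512, and Isg15 at 0.455 and 0.658. Rsad2 went from 13.4 CPM to 2.13 CPM dorsally, a ratio of 0.159 (0.117 to 0.213). That ratio was 0.566 without the 1% of cells richest in members.

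In macrophage-like cells the corresponding ratios of the sum were 0.364 (0.322 to 0.411) and 0.597 (0.537 to 0.662). Of 9 members 8 were lower dorsally, against 15.8% of all genes, and 7 ventrally, against 4.89%. Without the 1% of cells richest in members these counts were 7 and 3. Ifit2 went from 68 to 2 UMIs dorsally and from 34 to 2 ventrally, and Ifit1 from 61 to 3 and from 42 to 7, while Stat2 stood at 0.974 (0.674 to 1.41) and 1.02 (0.737 to 1.41). The macrophage-like classes had only 163 to 258 cells a library, and the control dorsal one held basal cell markers at 94.8 CPM against 6.84 to 15.8 CPM in the others. Neutrophil markers summed to 1031, 3969, 1274 and 815 CPM in these cells, with 6 of 6 above 0 in each library, and dendritic markers to 212, 345, 204 and 588 CPM, with 6, 7, 6 and 6 of 7 above 0. Their part in the result was not tested.

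Among ventral epithelial classes, gland-like cells had the lowest summed ratio to the control, at 0.404 (0.381 to 0.429), followed by secretory-like and ciliated-like cells at 0.508 and 0.514. In gland-like cells 7 of 7 measured members were lower in the knockout, against 6.62% of all genes, with a median log2 ratio of -1.54 beside -0.04 over all genes. Ifit1 went from 7.49 CPM to 0.890 CPM, a ratio of 0.119 (0.068 to 0.196). Isg15 went from 41.2 CPM to 11.2 CPM (0.271, 0.232 to 0.315), Oasl2 to 0.281 (0.195 to 0.398) and Rtp4 to 0.344 (0.309 to 0.382) of the control level. Stat2 differed least, at 0.639 (0.578 to 0.707). In the same cells 25 of 35 other effectors and 9 of 10 inducible GTPases were lower, among them Ddx60 at 0.079 and Zbp1, a nucleic acid sensor, at 0.160. The handling genes had 1 of 16 lower there. The gland-like classes themselves differed: gland markers summed to 197010 CPM in the control and 307129 CPM in the knockout. Dmbt1, one of these markers, went the other way, at 13533 and 7581 CPM. The part of these differences in the result was not tested, and no comparison inside clusters is given for gland-like cells.

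In ventral ciliated-like cells 7 of 8 measured members were lower in the knockout, against 2.99% of all genes. Ifit3 was at 0.128 (0.057 to 0.2504), Isg15 at 0.330 (0.264 to 0.409) and Ifit1 at 0.418 (0.326 to 0.530), and Stat2, at 0.814 (0.647 to 1.02), was the one that was not. Ventral secretory-like cells had 6 of 8 lower, against 6.47% of all genes, and Rsad2 higher at 1.54 (1.04 to 2.28), against 2.42%. The dorsal secretory-like class had 4 of 9 lower, against 12.6%, with Rtp4 at 0.475 (0.436 to 0.518). The summed ratio of dorsal secretory-like cells was 0.698 (0.678 to 0.718). The secretory-like cells of the dorsal control lay mainly in cluster 4 (1519 of 2903) and those of the dorsal knockout in cluster 6 (719 of 1178). The ratio of the sum was below 1 in 3 of 4 dorsal and 2 of 2 ventral clusters. The exception was cluster 4, with 143 CPM in the control and 163 CPM in its 74 knockout cells. Without the 1% of cells richest in members the ratio was below 1 in 4 of 4 dorsal clusters.

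The dorsal ciliated-like and hillock-like cells were the exceptions in the sum. In hillock-like cells the ratio was 0.995 (0.9502 to 1.04): Oasl2 was higher (1.52, 1.37 to 1.69), Ifit1 was lower (0.446, 0.397 to 0.4996) and the other 5 measured members were neither, against 4.94% of all genes higher and 14.7% lower. Oasl2 stood at 1.49 (1.34 to 1.66), just inside the 1.5-fold limit, without the 1% of cells richest in members. In ciliated-like cells the ratio was 1.18 (1.11 to 1.25), with Isg15 at 3.19 (2.86 to 3.54) and Ifit3 at 1.65 (1.34 to 2.02) higher, Ifit1, Rsad2 and Stat2 lower, and 3.52% of all genes higher and 6.94% lower. The dorsal knockout had 114 ciliated-like cells, and 3 of them held 83.1% of the 502 Isg15 UMIs and 89.2% of the 120 Ifit3 UMIs. The 3 cells richest in members were then left out of each library, an alternative chosen after these values were seen. The ratios turned to 0.592 (0.543 to 0.644) for the sum, 0.688 (0.544 to 0.859) for Isg15 and 0.476 (0.249 to 0.832) for Ifit3. In the ventral knockout the 3 cells held little of the signal, with a sum of 203.2 CPM with all cells and 202.6 CPM without them.

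**Figure D3:**
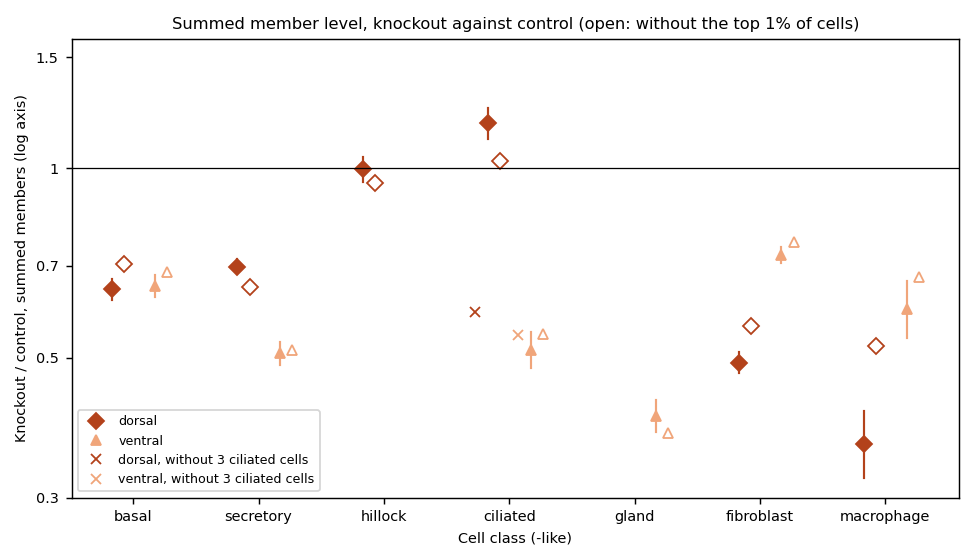
Summed level of the 9 members in knockout relative to control (log axis), by class and region, with 95% counting intervals. Open symbols leave out the 1% of cells richest in members, and crosses leave out 3 ciliated-like cells per library. The dorsal ciliated-like ratio is 1.18 with all cells and 0.592 without those 3, and the hillock-like ratio is 0.995.

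A small share of cells held much of the signal in several classes. The 1% of cells richest in members held 22.9%, 11.3%, 15.6% and 6.60% of the member UMIs of basal-like cells, and 28.1%, 13.4%, 17.9% and 9.02% of those of fibroblast-like cells. The dorsal libraries had the greater concentration in both classes and both genotypes. Without these cells the basal-like sums were 95.9, 196, 67.6 and 134 CPM, and the ratios became 0.490 and 0.505 for region and 0.704 and 0.684 for genotype. In ciliated-like cells of the knockout ventral library the 1% was 2 cells with 0.264% of the member UMIs. Leaving them out therefore changed little there.

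**Figure D4:**
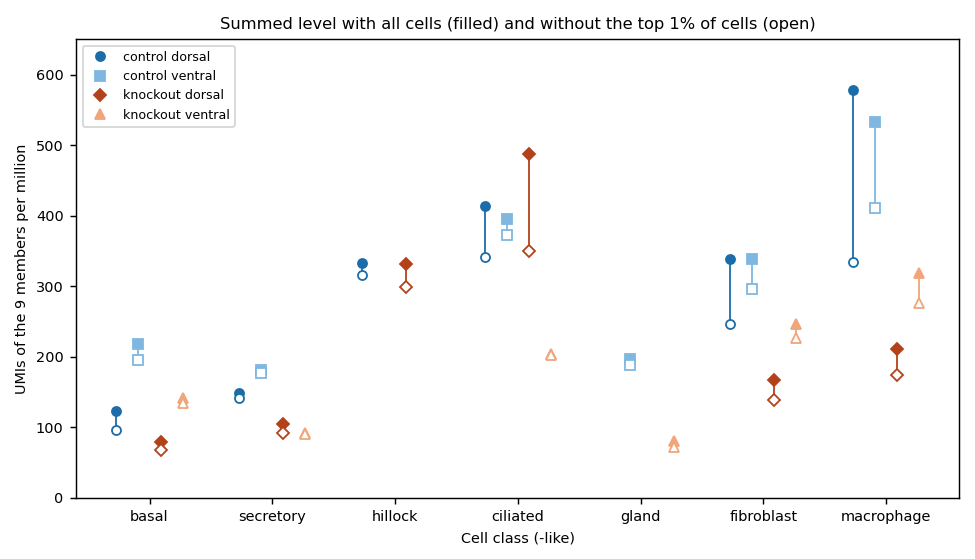
Summed level of the 9 members in CPM by class and library, with all cells (filled) and without the 1% of cells richest in members (open). Macrophage-like cells of the control dorsal library drop from 579 to 334 CPM, while gland-like cells move from 197 to 187 CPM in the control.

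The share of cells with UMIs of 3 or more members was compared after each cell was thinned to 5000 UMIs, since depth differed between libraries (medians of 15068, 22707.5, 20060 and 22997 UMIs in basal-like cells). In basal-like cells the share was 2.03% (74 of 3638), 6.29% (97 of 1542), 0.959% (17 of 1773) and 3.47% (35 of 1008). Unthinned it was 14.2%, 44.5%, 11.8% and 29.1%. The dorsal share was lower by 4.26 points (3.04 to 5.64) in controls and 2.51 points (1.39 to 3.88) in knockouts. The knockout share was lower by 1.08 points (0.372 to 1.70) dorsally and 2.82 points (1.10 to 4.46) ventrally. Thinning left out 120, 16, 20 and 7 basal-like cells.

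The members did not all follow this order. Isg15 was detected in 8.71%, 20.8%, 7.61% and 14.0% of thinned basal-like cells and Rtp4 in 5.28%, 14.3%, 3.55% and 7.84%. Ifit3 was detected in 0.412%, 1.17%, 0.169% and 0.496%. Against these, Irf7 was detected in 9.37%, 12.1%, 8.12% and 12.9%, so that its ventral knockout share was no lower than the control, and Ifit2 in 0.467%, 0.584%, 0.620% and 1.29%, with the knockouts above their controls. At least 5 members were seen in 13, 8, 1 and 0 basal-like cells, and the last allows a share of up to 0.298%. For comparison, chondrocyte-like cells with 3 or more members numbered 3 of 231 in the control dorsal library (1.30%), 0 of 393 in the control ventral one, which allows up to 0.763%, and 0 of 212 in the knockout ventral one, which allows up to 1.42%. Before thinning, all chondrocyte-like cells of these 3 libraries had medians of 9497.5, 15134.5 and 15121.5 UMIs. These cells hold Stat2 of their own, at 44.5 to 55.2 CPM, so they are no pure measure of free RNA, and Isg15 was at most 5.09 CPM in them. The interval of the dorsal control share overlaps that of its chondrocyte-like cells, and both ventral shares lie above the limits of their own library.

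Elsewhere the share of cells with 3 or more members was highest in ciliated-like cells of the controls, at 14.7% and 14.2%, against 9.21% and 5.93% in the knockouts. Thinning left out 404 of 1277, 212 of 537, 38 of 114 and 54 of 189 ciliated-like cells, so these shares describe the deeper cells only. The ventral knockout was lower by 8.23 points (1.92 to 13.3), and the dorsal interval held 0 (from 10.8 points lower to 3.43 points higher). Dorsal hillock-like cells had 13.8% in the control and 13.3% in the knockout. Fibroblast-like cells had 10.0%, 10.8%, 4.63% and 7.85%, and gland-like cells 3.64% and 0.528%. Macrophage-like shares were 9.14%, 11.7%, 7.41% and 6.08%, and none of their 4 differences had an interval that left out 0. Of the macrophage-like cells 76, 79, 28 and 51 were left out by thinning.

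**Figure D5:**
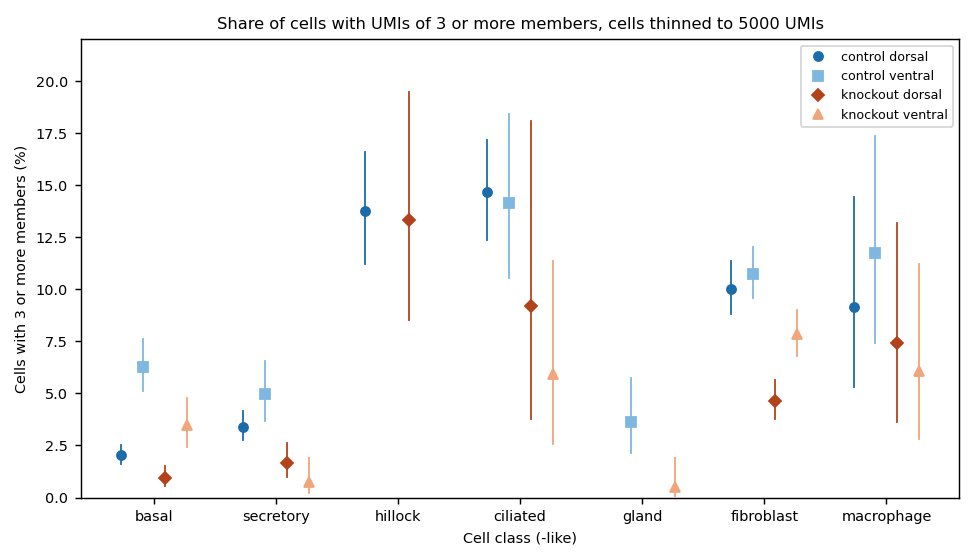
Share of cells with UMIs of 3 or more of the 9 members in percent, each cell thinned to 5000 UMIs, by class and library with exact 95% intervals. Basal-like cells are at 2.03% and 6.29% in controls and 0.959% and 3.47% in knockouts, and the hillock-like points, at 13.8% and 13.3%, overlap.

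Of the members 1 pair, Isg15 and Ifit3, was examined for detection in the same cells. In fibroblast-like cells of the control dorsal library Ifit3 was detected in 20.5% of 449 cells with Isg15 and in 4.79% of 1753 cells without it. The shares were 16.7% and 8.27% in the control ventral, 12.5% and 2.86% in the knockout dorsal and 9.75% and 4.88% in the knockout ventral library. In basal-like cells the same pair was rarer, with 1.89% and 0.271% in the control dorsal and 3.12% and 0.655% in the control ventral library. Macrophage-like cells had 13.9% and 0% in the control dorsal and 13.6% and 0% in the control ventral library. Ciliated-like cells of the control dorsal library had 11.9% and 2.81%. Hillock-like cells of the knockout dorsal library had 17.2% of 29 cells and 0.735% of 136. The shares lay close together in basal-like cells of the knockout ventral library, at 0.709% and 0.461%. In the control dorsal library they were 2.68% and 2.33% in hillock-like and 0.641% and 0.363% in secretory-like cells. All cells were thinned to 5000 UMIs here as well, and the cells of a library are not replicates.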

How the data were processed

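Raw UMI counts per gene and barcode were deposited by the authors for 4 libraries, and the submitters' processing notes name Cell Ranger 10.0.0 and GRCm39, with no annotation release. Barcodes were kept when they had 500 or more genes and when mitochondrial genes took no more than 15% of their UMIs. Scrublet doublets were removed at 0.4% per 1000 barcodes in each library, because automatic calls came to 0.491% to 2.24%. Cells were scaled to 10000 counts, logged and clustered together (2000 variable genes without the interferon lists, 30 components, 20 neighbours, Leiden resolution 1; scanpy 1.11.5, leidenalg 0.10.2, igraph 0.11.9). The 32 clusters, and 24 epithelial ones, were named from 29 marker lists, and those that failed were left unnamed.

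Counts were summed by class and library. Levels have exact Poisson, ratios conditional binomial and shares Clopper-Pearson intervals, and differences of shares Newcombe intervals (scipy 1.17.1). The ratio code was tested on simulated data. Log2 ratios had 0.5 counts added. Classes with under 50 cells in a library were not compared. All 9 members are named. From each of the other lists the 2 highest and 2 lowest genes by interval bound could be named, as were the 10 genes most like the members, of which 1 is not reported here. Members and lists were chosen with earlier results of these data known. The Ifit3 promoter stretch was not printed, because it lies inside the RefSeq span of the gene. RefSeq coordinates are GRCm38.p6 and were not mixed with the build of the files.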

Additional observations from a re-analysis of the deposited data

Results flagged for a closer look

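In ciliated-like cells Isg15 differed in direction between regions, at 3.19 (2.86 to 3.54) of the control level in the dorsal knockout and 0.330 (0.264 to 0.409) in the ventral knockout. Ifit3 did the same, at 1.65 (1.34 to 2.02) and 0.128 (0.0572 to 0.2504). In fibroblast-like cells Rsad2 was 2.91-fold (2.39 to 3.56) higher dorsally in controls and at 0.649 (0.456 to 0.915) of the ventral level in knockouts. These 3 drew attention because the 2 groups moved in opposite directions. With 1 library per group the differences were not tested. Without the 3 cells richest in members in each library, the dorsal values were 0.688 for Isg15 and 0.476 for Ifit3, on the same side as the ventral ones. Without the 1% of cells richest in members, Rsad2 stood at 0.915 in control and 0.564 in knockout fibroblast-like cells.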

How the results depend on the processing

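With 1 library per group none was left out, and counting intervals were the limit of precision. No paired analysis was possible because each group had 1 library and no replicate numbers to pair. Values below are median log2 ratios of the members unless stated. Leaving mitochondrial and ribosomal UMIs out of the total and dropping the UMI minimum kept 65 of 65 and 30 of 30 results within their intervals. Naming cells from marker genes kept 40, moved 23 and reversed 2. Leaving out the top 1% of cells kept 45, moved 18 and reversed 2. With interferon genes in clustering 47 were kept and 18 moved. Thinning to 3000 and 8000 UMIs kept 6 and 10 results and moved 22 and 18. Asking for at least 2 and at least 4 members kept 5 and 7 and moved 23 and 21. The cause of the shifts was not tested.

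Basal-like cells. Counting a fold of 2 left 2 members lower for region in controls, 2 in knockouts, 3 in the dorsal knockout and 2 in the ventral knockout. Shares of all genes are not given at these other settings, so the counts in this paragraph describe the members alone. Leiden resolution 2 gave 3 lower for region in controls and -0.90 for the dorsal knockout. Cells named from marker genes gave 9 lower for region in controls, and 3 lower with -0.43 for the dorsal knockout. Keeping interferon genes in clustering gave -0.86 for the dorsal knockout and 1 member higher in the ventral knockout. For region in controls 1 member was higher with doublets kept and 2 with at least 1000 genes a cell. The log2 ratio of Ifit3 for region in controls reversed to 0.11 (resolution 2), 0.67 (doublets kept) and 1.01 (1000 genes), and that of Ifit1 to -0.60 (marker genes) and -0.35 (without the top 1% of cells). The log2 ratio of Ifit3 in the dorsal knockout reversed to 0.40 (marker genes). Thinned to 3000 UMIs, the ratio of shares with 3 or more members was 0.510 for region in knockouts and 0.374 for the ventral knockout, against 0.276 and 0.552.

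Secretory-like cells. The dorsal knockout had -0.33 with median-of-ratios size factors, -0.32 and -0.30 at resolutions 0.5 and 2, -0.34 with interferon genes in clustering, -0.33 with doublets kept and -0.66 without the top 1% of cells. Region in knockouts had -0.10 with at least 50 UMIs, 0.37 and 0.78 at resolutions 0.5 and 2, 0.67 with marker genes and 0.47 with interferon genes in clustering. The ventral knockout had -1.28 at resolution 2 and -1.23 with marker genes.

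Other classes. Hillock-like cells in the dorsal knockout had 0.31 with size factors, 0.31 with marker genes, 0.39 with interferon genes in clustering, 0.42 with doublets kept, 0.38 with at least 1000 genes and 0.019 without the top 1% of cells. Fibroblast-like cells for region in controls had 0.16 at resolution 0.5, 0.16 with interferon genes in clustering, 0.20 with doublets kept and -0.14, a reversal, without the top 1%. In the dorsal knockout they had -0.99 with size factors, -0.99 with doublets kept and -0.81 without the top 1%. Macrophage-like cells had -0.96 with marker genes and -0.99 without the top 1% in the dorsal knockout, and 0.62 for region in controls with doublets kept. Ciliated-like cells without the top 1% had -0.12 for region in controls and 0.45 in knockouts. Without 3 cells a library, an alternative added after the data were seen, their dorsal knockout log2 ratios reversed to -0.54 (Isg15), -1.07 (Ifit3) and -0.76 (sum). Median-of-ratios size factors shifted all genes by -0.17 for region in knockout basal-like cells, -0.18 in fibroblast-like and -0.14 in secretory-like cells, and for the dorsal knockout by -0.15 (fibroblast-like), -0.16 (hillock-like), -0.14 (secretory-like) and -0.11 (macrophage-like).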
